A study of Mus musculus with 12 samples.

Results

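The 10 enzyme genes that make fatty acids from acetyl units, put double bonds into them or lengthen them were followed in primary mouse adult fibroblasts after thymol. They were chosen by symbol: the synthesis enzymes *Acly*, *Acss2*, *Acaca* and *Fasn*, the desaturases *Scd1*, *Scd2*, *Fads1* and *Fads2*, and the elongases *Elovl5* and *Elovl6*. The choice was made with earlier results of these data known. Of these 10 genes, 9 were among the 10697 genes of the expression table, and *Acss2* was not analysed further.

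The cells are taken here as wild-type fibroblasts grown out of minced biopsies of C57BL/6J mice in high-glucose medium rich in fetal serum. The paper names C57BL/6J and mito-QC reporter mice as sources of its adult fibroblasts and does not tie these libraries to either. It states that every mouse of the study was male. A group of 6 libraries came from cells given 100 µM thymol, a phenolic terpenoid of thyme and oregano, for 24 h, and 6 came from cells given the same volume of the solvent DMSO for the same time. The tissue that was biopsied, the age of the mice and the number of mice behind the libraries are not given in the sources used here, so p-values measure the spread between these 12 libraries, which may be technical. Transcripts were read by QuantSeq, which sequences the 3′ end of polyadenylated RNA and gives about a single read per transcript whatever its length.

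Fatty acid synthesis starts when ATP citrate lyase (*Acly*) or, from acetate, acetyl-CoA synthetase (*Acss2*) supplies acetyl-CoA in the cytosol. Acetyl-CoA carboxylase (*Acaca*) turns it into malonyl-CoA, and fatty acid synthase (*Fasn*) builds palmitate. Elongases in the endoplasmic reticulum add carbon units: ELOVL6 acts on palmitate and other saturated chains, and ELOVL5 on polyunsaturated ones. The stearoyl-CoA desaturases SCD1 and SCD2 place a double bond in saturated chains to give monounsaturated fatty acids. FADS2 and FADS1, the delta-6 and delta-5 desaturases, work in turn on dietary polyunsaturated fatty acids on the way to arachidonic acid and its omega-3 counterparts. Transcription of these genes is driven by the sterol regulatory element-binding proteins (SREBPs), membrane-bound factors that are released for the nucleus when membrane lipids run low.

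The 4 desaturase genes lie as pairs on chromosome 19 of the mouse genome (build GRCm38, GENCODE vM21). *Fads2* (10062765 to 10101746, minus strand) and *Fads1* (10182888 to 10196877, plus strand) face away from each other, whereas *Scd2* (44293674 to 44306864, plus strand) and *Scd1* (44394455 to 44407879, minus strand) face each other. *Acly* (100476353 to 100528000, minus strand), *Acaca* (84129672 to 84401651, plus strand) and *Fasn* (120805846 to 120824547, minus strand) are all on chromosome 11. *Elovl5* is on chromosome 9 (77917364 to 77984519, plus strand) and *Elovl6* on chromosome 3 (129532355 to 129638495, plus strand). No other annotated gene overlapped the last 500 bases of any of the 9 measured genes, where QuantSeq reads fall. The corresponding end of *Acss2* (chromosome 2, 155517948 to 155585724, plus strand) was overlapped by *Gss* on the opposite strand. *Scd1* and *Scd2* belong to a family of close relatives, and reads that could have come from either were handled by the authors' counting.

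Promoter sequences, from 250 bases before to 50 bases after the start of the transcript, were taken from RefSeq on GRCm38.p6 for 7 of the 10 members. *Scd1*, *Scd2* and *Fads1* had no entry. The promoters of 4 members are shown because they range over a gene that fell with thymol (*Fads2*) and genes of each other step that did not pass the test (*Acly*, *Fasn*, *Elovl5*). Each is written 5′ to 3′ on the strand of the gene, and capitals mark a match on either strand to the GC box GGGCGG, the CCAAT box CCAAT or the E-box CACGTG. The *Fads2* promoter is chr19:10101454-10101753, that of *Acly* chr11:100527951-100528250, that of *Fasn* chr11:120824498-120824797 and that of *Elovl5* chr9:77917115-77917414.
Fads2 promoter: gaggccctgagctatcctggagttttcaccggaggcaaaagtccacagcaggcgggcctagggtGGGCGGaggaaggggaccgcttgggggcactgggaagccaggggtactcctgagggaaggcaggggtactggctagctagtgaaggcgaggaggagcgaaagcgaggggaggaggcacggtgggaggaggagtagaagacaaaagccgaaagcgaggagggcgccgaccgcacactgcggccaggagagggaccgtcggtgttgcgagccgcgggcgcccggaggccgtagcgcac
Acly promoter: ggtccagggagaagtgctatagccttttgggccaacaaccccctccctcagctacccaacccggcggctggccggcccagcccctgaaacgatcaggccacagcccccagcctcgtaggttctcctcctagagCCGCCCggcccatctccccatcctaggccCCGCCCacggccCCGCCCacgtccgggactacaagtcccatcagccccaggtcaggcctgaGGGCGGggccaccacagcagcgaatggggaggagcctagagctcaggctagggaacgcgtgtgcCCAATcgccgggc
Fasn promoter: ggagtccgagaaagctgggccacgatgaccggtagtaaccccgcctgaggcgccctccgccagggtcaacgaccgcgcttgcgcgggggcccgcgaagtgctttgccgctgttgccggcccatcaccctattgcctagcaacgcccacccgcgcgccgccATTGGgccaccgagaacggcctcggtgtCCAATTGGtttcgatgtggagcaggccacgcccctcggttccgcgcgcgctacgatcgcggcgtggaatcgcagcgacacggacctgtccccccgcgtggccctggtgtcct
Elovl5 promoter: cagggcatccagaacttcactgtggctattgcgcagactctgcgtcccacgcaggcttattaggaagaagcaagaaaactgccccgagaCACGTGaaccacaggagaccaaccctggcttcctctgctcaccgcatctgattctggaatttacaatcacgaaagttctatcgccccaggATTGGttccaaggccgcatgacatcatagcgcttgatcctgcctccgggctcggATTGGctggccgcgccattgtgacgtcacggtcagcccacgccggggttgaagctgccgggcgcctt
The *Fads2* window held 1 GC box and no CCAAT box or E-box, the *Acly* window held 4 GC boxes and 1 CCAAT box, and the *Fasn* window held 3 CCAAT matches, 2 of which overlap on opposite strands. The *Elovl5* window held 1 E-box and 2 CCAAT boxes. These are common letters: 35.7% of all 32851 promoter windows held a GC box, 37.4% a CCAAT box and 7.15% an E-box. The sterol regulatory element spelled TCACNCCAC was matched in 0 of the 7 member windows and in 1.24% of all windows, which says only that these letters are not in these windows.

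The libraries held between 5435985 and 9049796 reads over the genes of the table, as recovered from the steps between low values. The deepest was thymol replicate 5, and the next deepest thymol library had 6585162 reads. The table held 10 of 12 markers of fibroblasts, all but *Lum* and *Fap*. Their levels summed to 11853 to 13074 CPM (reads scaled to the depth of each library) in the DMSO libraries and to 11241 to 11829 CPM in the thymol libraries. All 10 macrophage markers were in the table too, at 14357 to 15908 CPM with DMSO and 14424 to 17655 CPM with thymol, so the cultures labelled as fibroblasts also held macrophage transcripts. Most of that sum was *Lyz2*, at a mean of 13.61 log2 CPM with DMSO and 13.69 with thymol. Single markers were called lower with thymol in limma: *Cd14* (-0.78) and *Itgam* (-0.31) of macrophages, *Col3a1* (-0.54) and *Col1a1* (-0.28) of fibroblasts and *Acta1* (-0.45) of skeletal muscle. No marker was called higher, but the lists did not move in 1 direction. Means were higher with thymol for 4 and lower for 6 of the 10 fibroblast markers, and likewise for the 10 macrophage markers. Those with higher means included *Pdgfra* of fibroblasts (0.33) and *Cd68* of macrophages (0.18), at limma adjusted p = 0.28 and 0.055. Of 8 adipocyte markers, the defining genes *Adipoq*, *Plin1*, *Cidec*, *Lep*, *Cfd* and *Retn* were not listed. The other 2, *Fabp4* and *Lipe*, summed to 87.1 to 104 CPM with DMSO and 100.3 to 117 CPM with thymol. That sum was mostly *Fabp4*, at a mean of 6.38 log2 CPM with DMSO and 6.63 with thymol. *Lipe* had means of 3.58 and 3.24, and neither gene passed. None of 7 epithelial and sebaceous markers was listed, and 2 of 5 endothelial and 2 of 5 skeletal muscle markers were, at 5.39 to 9.77 and 133 to 160 CPM with DMSO and at 5.58 to 9.22 and 93.2 to 125 CPM with thymol. In such bulk samples, fewer cells of a type and less RNA per cell cannot be told apart, and the part of the cell mixture in the results below was not tested.

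The comparison of thymol with DMSO asked which steps of fatty acid production differed in transcript level. Among the 4 desaturase genes, *Scd2*, *Fads2* and *Fads1* fell with thymol, to between 64.1% and 78.8% of the DMSO level. None of the 3 measured synthesis enzymes and neither elongase passed the test, although the mean of each was lower with thymol. The fit was limma on the deposited log2 values of all 10697 genes, with p-values adjusted over all of them by the Benjamini-Hochberg method and a threshold of 0.05. In this fit, 2.22% of all genes were called, 1.57% lower with thymol and 0.654% higher. Beside that background, 3 of the 9 measured members were called lower and 0 higher. This share is descriptive, as the members were chosen with earlier results known. Without thymol replicate 5, the same 3 genes were called.

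**Figure D1:**
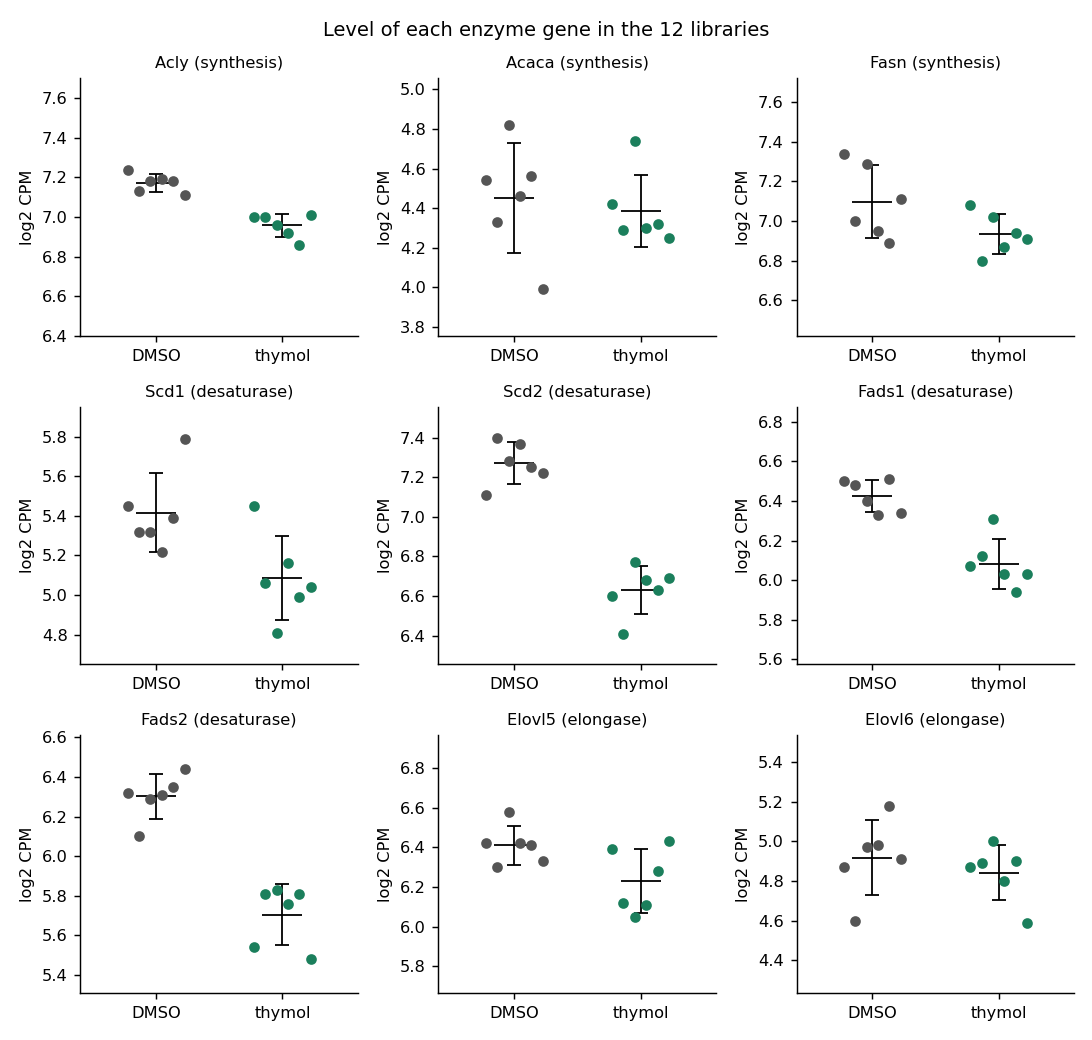
Level of each of the 9 measured genes (log2 CPM, every panel spanning the same range) in the 6 DMSO libraries (gray) and the 6 thymol libraries (green), ordered by replicate number, with the mean and SD in black. The 2 groups do not overlap for *Acly*, *Scd2*, *Fads1* and *Fads2*.

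*Scd2*, the stearoyl-CoA desaturase found in many tissues outside the liver, showed the largest fold change of the 9 genes. Its level ranged from 7.11 to 7.40 log2 CPM with DMSO, with a median of 7.26, and from 6.41 to 6.77 with thymol, with a median of 6.66. The 6 thymol values all lay below the 6 DMSO values, and the lowest was thymol replicate 2. The log2 fold change was -0.64 ± 0.071 (SE, n = 6 each, limma adjusted p = 6.4e-09), so that *Scd2* fell by 35.9%. On average the gene rested on 1092 reads in a DMSO library and 647 in a thymol library.

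*Scd1*, which catalyzes the same reaction, had a lower mean as well but did not pass. It ranged from 5.22 to 5.79 log2 CPM with DMSO (median 5.35) and from 4.81 to 5.45 with thymol (median 5.05). All thymol values but 1 lay below every DMSO value, and thymol replicate 1, the highest, lay among the DMSO values. The log2 fold change was -0.33 ± 0.11 (SE, n = 6 each, limma adjusted p = 0.15). Without thymol replicate 1 it was -0.40 and passed (limma adjusted p = 0.048), and without DMSO replicate 6, the highest DMSO library, it was -0.25.

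*Fads2*, which carries out the first desaturation of the essential fatty acids, ranged from 6.10 to 6.44 log2 CPM with DMSO (median 6.32) and from 5.48 to 5.83 with thymol (median 5.78). The groups did not overlap, and thymol replicates 6 and 1 were lowest at 5.48 and 5.54. The log2 fold change was -0.60 ± 0.088 (SE, n = 6 each, limma adjusted p = 6.4e-06), and *Fads2* fell by 33.9%.

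*Fads1*, the next desaturase of that route, ranged from 6.33 to 6.51 log2 CPM with DMSO (median 6.44) and from 5.94 to 6.31 with thymol (median 6.05). Again no thymol value reached the DMSO range, although thymol replicate 3 at 6.31 came close to the lowest DMSO value of 6.33. The log2 fold change was -0.34 ± 0.081 (SE, n = 6 each, limma adjusted p = 0.0080), and *Fads1* fell by 21.2%. *Scd2*, *Fads1* and *Fads2* each passed in all 12 fits that left out 1 library. In the odd-numbered and the even-numbered libraries alone, *Scd2* changed by -0.55 and -0.74 and *Fads2* by -0.59 and -0.60, and both passed in each. *Fads1* changed by -0.36 and -0.32 there and passed in neither (limma adjusted p = 0.21 and 0.23), with 3 libraries per group.

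Among the synthesis enzymes, *Acly* was the most uniform of the 9 genes within groups. It ranged from 7.11 to 7.24 log2 CPM with DMSO (median 7.18) and from 6.86 to 7.01 with thymol (median 6.98). The groups did not overlap, which was so for 1.16% of all genes in this direction and 0.524% in the other, but the log2 fold change of -0.21 ± 0.065 (SE, n = 6 each) missed the threshold (limma adjusted p = 0.069). It passed when libraries were centered on their medians (-0.22, limma adjusted p = 0.0498) and when genes with a mean of 5 log2 CPM or less were left out (limma adjusted p = 0.038).

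*Fasn* ranged from 6.89 to 7.34 log2 CPM with DMSO (median 7.05) and from 6.80 to 7.08 with thymol (median 6.92). Only 2 thymol values lay below every DMSO value. The log2 fold change was -0.16 ± 0.075 (SE, n = 6 each, limma adjusted p = 0.37, unadjusted p = 0.036). *Acaca* varied the most among the DMSO libraries, from 3.99 to 4.82 log2 CPM (median 4.50), and its thymol values of 4.25 to 4.74 (median 4.31) all fell inside that range. Its log2 fold change of -0.063 had a 95% interval of -0.36 to 0.23, and its sign turned to 0.011 without DMSO replicate 3. At a mean of 156 reads per DMSO library, a change of the size seen in *Fads1* lay just inside the lower end of that interval.

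The elongase *Elovl5*, which serves the same polyunsaturated route as the FADS enzymes, ranged from 6.30 to 6.58 log2 CPM with DMSO (median 6.41) and from 6.05 to 6.43 with thymol (median 6.20). Thymol replicates 1 and 6 lay among the DMSO values and the other four below all of them. The log2 fold change was -0.18 ± 0.082 (SE, n = 6 each, limma adjusted p = 0.36, unadjusted p = 0.034). *Elovl6*, whose product is stearate, ranged from 4.60 to 5.18 log2 CPM with DMSO (median 4.94) and from 4.59 to 5.00 with thymol (median 4.88). The groups overlapped almost fully, and the log2 fold change of -0.076 had a 95% interval of -0.32 to 0.17 (limma adjusted p = 0.90).

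**Figure D2:**
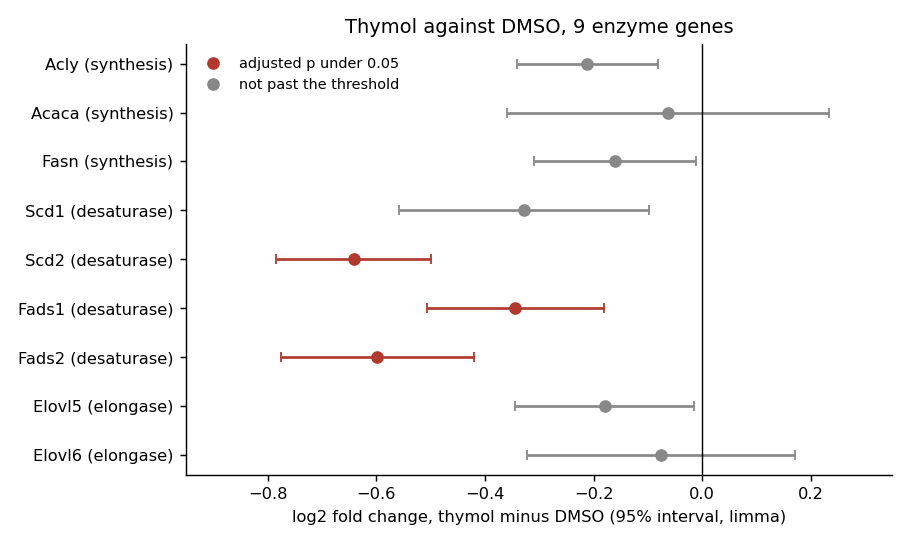
Log2 fold change of each gene, thymol minus DMSO, with its 95% interval from limma, unadjusted for the number of genes. *Scd2*, *Fads2* and *Fads1* (red) passed the adjusted threshold, and the intervals of *Acly*, *Fasn*, *Scd1* and *Elovl5* (gray) also lie below 0 but those genes did not pass.

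Set side by side, the median log2 fold change was -0.16 over the 3 synthesis enzymes, -0.47 over the 4 desaturases and -0.13 over the 2 elongases, beside 0.0026 over all genes. All 9 measured members had a lower mean with thymol, against 49.1% of all genes. The unadjusted p-value was under 0.05 for 7 of the 9, against 11.8% of all genes. Since the members were chosen with earlier results of these data known, these shares are descriptive and test nothing. The lower means were spread over the libraries: each thymol library lay below the DMSO mean for 7 to 9 of the 9 genes and below every DMSO value for 4 to 7 of them. Thymol replicate 3 was the highest thymol library for 5 of the 9 genes and the lowest for *Scd1* and *Elovl5*.

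Whether related enzymes differed in their response was tested on the difference of their log2 values within each library, in 3 pairs. *Scd2* minus *Scd1* was 1.86 ± 0.27 (SD) in the 6 DMSO libraries and 1.55 ± 0.28 (SD) in the 6 thymol libraries, a change of -0.31 with a 95% interval of -0.66 to 0.040 (exact two-sided permutation p = 0.078, adjusted p = 0.12). *Fads2* minus *Fads1* was -0.13 ± 0.16 (SD) in the 6 DMSO libraries and -0.38 ± 0.17 (SD) in the 6 thymol libraries, a change of -0.25 with a 95% interval of -0.47 to -0.045 (exact two-sided permutation p = 0.030, adjusted p = 0.091 over the 3 pairs). The *Fads2* and *Fads1* pair passed only without DMSO replicate 2 (-0.31) or without thymol replicate 5 (-0.30), at an adjusted p of 0.039 in each by the exact permutation test. *Elovl6* minus *Elovl5* was -1.49 ± 0.17 (SD) in the 6 DMSO libraries and -1.39 ± 0.27 (SD) in the 6 thymol libraries, a change of 0.10 with a 95% interval of -0.19 to 0.38 (exact two-sided permutation p = 0.44, adjusted p = 0.44). Thus with all 12 libraries, no pair differed past the threshold, and in 2 of the 3 pairs the interval includes no difference. The intervals hold every shift that the exact test did not reject.

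**Figure D3:**
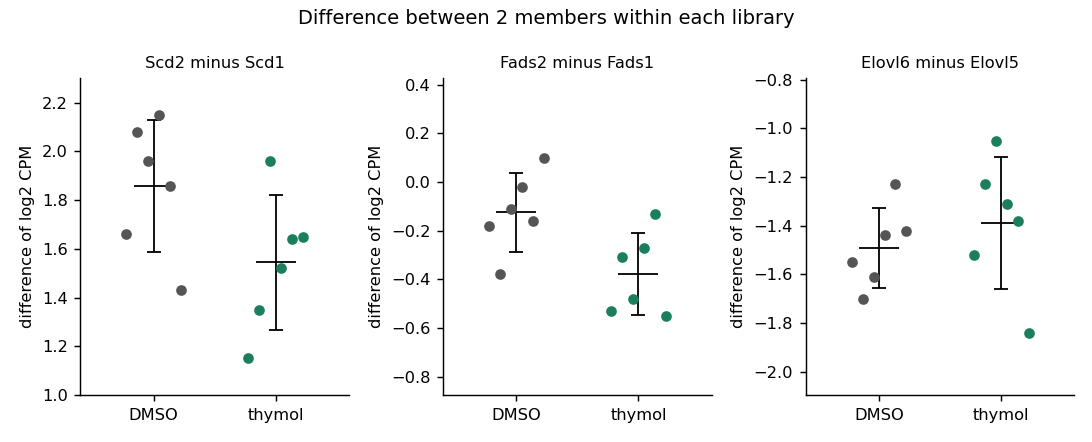
Difference of log2 CPM between 2 related genes within each library, for the 6 DMSO (gray) and 6 thymol libraries (green), with the mean and SD in black and the same range in each panel. The groups overlap in all 3 pairs, with 3 thymol values below every DMSO value for *Fads2* minus *Fads1* and 2 for *Scd2* minus *Scd1*.

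The genes around these enzymes were taken from lists by role, chosen with earlier results of these data known. The lists named 106 genes beside the members, of which 85 were in the table. Of the 85, 6 were called, all lower with thymol, and 79 did not pass, with a median log2 fold change of -0.074. The share of 6 in 85 stands beside 1.57% of all genes called lower and is descriptive, given how the lists were chosen. This count was less stable than that of the members. It was 3 without DMSO replicate 2, 5 or 6 and 1 in the odd-numbered or the even-numbered libraries alone. The counts of single lists below also stand beside 1.57% of all genes called lower and 0.654% called higher, and are descriptive.

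Of 10 genes that supply precursors and NADPH, *Idh1*, the cytosolic isocitrate dehydrogenase that makes NADPH, was called. It ranged from 7.49 to 7.64 log2 CPM with DMSO and from 7.09 to 7.37 with thymol without overlap, a log2 fold change of -0.31 ± 0.064 (SE, n = 6 each, limma adjusted p = 0.0015). The call was lost in the even-numbered libraries alone (-0.25, limma adjusted p = 0.18) and without the mean-variance trend (limma adjusted p = 0.066). The citrate carrier gene *Slc25a1*, the malic enzyme gene *Me1* and the pentose phosphate genes *Pgd* and *G6pdx* gave -0.16, -0.18, -0.11 and 0.11 and did not pass (limma adjusted p of 0.43 to 0.79). Of the partners of acetyl-CoA carboxylase, 5 of 8 were in the table and 0 were called in limma, also 0 at an unadjusted p-value under 0.05. The smallest p-value among them was that of *Prkaa1*, a catalytic subunit of AMPK, at -0.21 (limma adjusted p = 0.43).

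Other genes of desaturation and of elongation did not pass either. Desaturases take electrons from cytochrome b5 and its reductase, and the list of these and the other desaturases had 5 of 8 genes in the table, all but *Scd3*, *Scd4* and *Fads6*. Of *Cyb5a*, *Cyb5b*, *Cyb5r1*, *Cyb5r3* and the third gene of the Fads cluster, *Fads3*, 0 were called in limma and 0 had an unadjusted p-value under 0.05. *Cyb5b* had the smallest p-value at -0.098 (limma adjusted p = 0.56), and *Fads3* differed by 0.060. The dehydratase, reductase and ketoreductase genes that complete each round of elongation were all in the table, 6 of 6, and 0 were called in limma, with 0 at an unadjusted p-value under 0.05. Their log2 fold changes lay between -0.099 and 0.16, and that of *Hacd2* had the smallest p-value (0.16, limma adjusted p = 0.57). *Elovl1*, the only other elongase in the table, which acts on very long saturated chains, differed by -0.14 (limma adjusted p = 0.49).

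Mitochondria carry a separate fatty acid synthesis pathway that feeds lipoic acid. Of its 8 listed genes 5 were in the table and 0 were called in limma, also 0 at an unadjusted p-value under 0.05. *Oxsm* had the smallest p-value, with -0.52 ± 0.26 (SE, n = 6 each, limma adjusted p = 0.43) at a mean of 50.8 reads with DMSO and 32.0 with thymol.

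Downstream of synthesis, 2 of 6 genes that activate fatty acids with coenzyme A were called lower. *Acsl4*, which prefers arachidonic acid, gave -0.28 ± 0.074 and *Acsl3*, found on lipid droplets and the endoplasmic reticulum, -0.38 ± 0.11 (SE, n = 6 each, limma adjusted p = 0.027 and 0.0495). The groups overlapped for both. *Acsl4* passed in 7 and *Acsl3* in 3 of the 12 fits that left out 1 library. Of 14 genes of glycerolipid assembly and storage, *Plin2*, which coats lipid droplets, was called. It ranged from 7.76 to 8.02 log2 CPM with DMSO (median 7.93) and from 7.38 to 7.60 with thymol (median 7.54), a log2 fold change of -0.41 ± 0.060 (SE, n = 6 each, limma adjusted p = 6.1e-06). In the odd-numbered libraries alone it did not pass (-0.31, limma adjusted p = 0.081). Other genes of that list, such as *Gpam* (-0.0075) and *Dgat2* (-0.35), did not pass, and the median of the list was -0.011.

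Among 20 fatty acid oxidation genes, *Cpt1a*, the gate for entry of long chains into mitochondria, was called, with a log2 fold change of -0.36 ± 0.093 (SE, n = 6 each, limma adjusted p = 0.018) and no overlap between groups. It passed in 8 of the 12 fits that left out 1 library. The median of the list was -0.11, and 15 of the 20 means were lower, against 49.1% of all genes. Given how the lists were chosen, this share is descriptive.

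**Figure D4:**
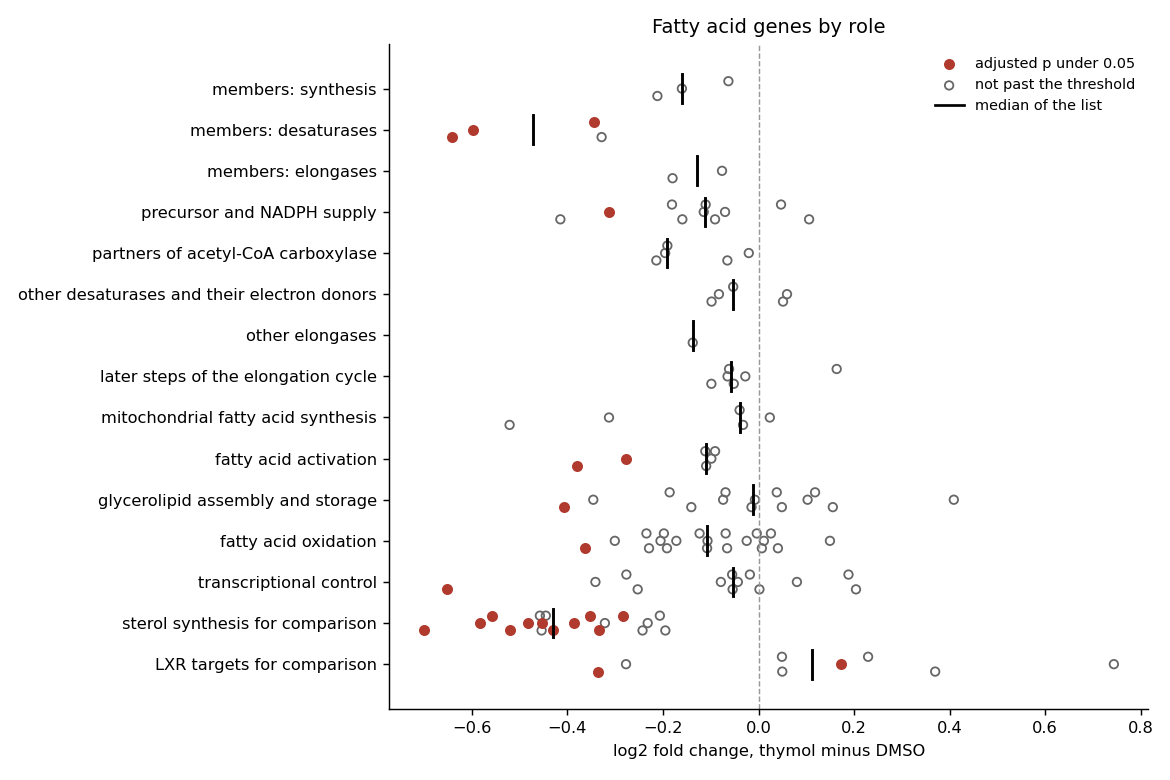
Log2 fold change of each measured gene, thymol minus DMSO, by list, with genes past the adjusted threshold filled, the others open, and a bar at the median of each list. Desaturases and sterol synthesis genes have medians of -0.47 and -0.43, while the other lists plotted have medians between -0.19 and 0.11.

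Among 13 genes of transcriptional control, *Insig1*, which holds SREBPs back in the endoplasmic reticulum and is itself an SREBP target, was called. It ranged from 4.25 to 4.60 log2 CPM with DMSO (median 4.33) and from 2.82 to 4.07 with thymol (median 3.84), a log2 fold change of -0.65 ± 0.18 (SE, n = 6 each, limma adjusted p = 0.027). Thymol replicate 2 was far below the other thymol libraries, and without it the change was -0.47 and did not pass (limma adjusted p = 0.14). *Insig1* passed in 8 of the 12 fits that left out 1 library, and also failed without DMSO replicate 1, 2 or 5 (limma adjusted p = 0.086, 0.051 and 0.060). *Srebf1*, which encodes the SREBP most tied to fatty acid genes, differed by -0.28 ± 0.15 and *Srebf2*, the one most tied to sterol genes, by -0.25 ± 0.084 (SE, n = 6 each, limma adjusted p = 0.47 and 0.11). *Srebf2* passed in 1 of the 12 fits that left out 1 library, that without thymol replicate 4 (-0.30, limma adjusted p = 0.043). *Scap*, the SREBP escort, differed by -0.043 and turned to 0.016 without thymol replicate 5.

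The sterol synthesis genes, which share SREBP control, gave 11 of 19 called lower and 0 higher, beside 1.57% and 0.654% of all genes. Their median was -0.43, beside -0.47 over the desaturases, -0.16 over the synthesis enzymes and -0.13 over the elongases. The part of SREBPs in these differences was not tested. *Hmgcs1*, the HMG-CoA synthase of the mevalonate route, gave -0.48, and *Hsd17b7* and *Msmo1* of the later steps -0.45 and -0.39 (limma adjusted p = 8.6e-07, 2.9e-05 and 4.1e-05). Targets of the liver X receptors, which raise *Srebf1* and *Scd1* transcription when oxysterols are plentiful, were called in both directions. Of 8, *Abca1*, a cholesterol exporter, was called lower (-0.34, limma adjusted p = 0.0080) and *Apoe* higher (0.17, limma adjusted p = 0.011), while *Abcg1* at 0.74 did not pass (limma adjusted p = 0.054).

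**Figure D5:**
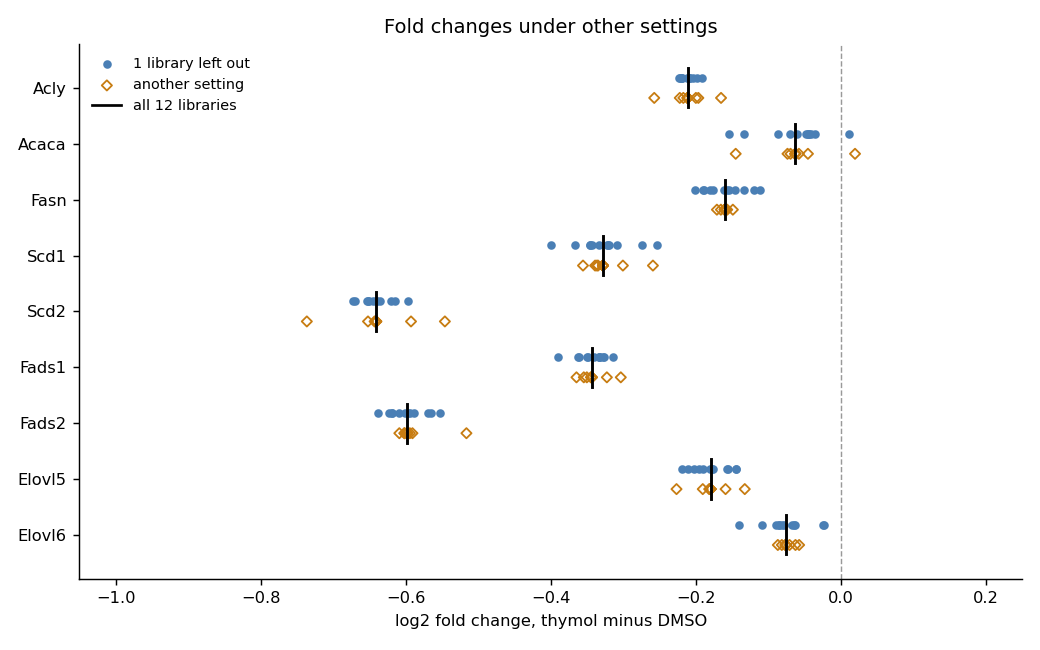
Log2 fold change of each member with all 12 libraries (black bars), with 1 library left out (blue points) and under the other settings (open diamonds). *Scd2* and *Fads2* lie to the left of the other members under every one of these settings, and *Acaca* crosses 0.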

How the data were processed

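The 12 QuantSeq libraries were analysed, 6 per group. The authors aligned reads to GRCm38 with STAR 2.5.3, counted them with HTSeq 0.6.1, kept annotated genes that reached 30 reads in 6 or more libraries (98.0% did in the recovered reads), and deposited log2 values: TMM-scaled log2 CPM with a prior count. Whole reads were recovered from the equal steps of the un-logged values (100% of values under 200 reads within 0.02 of a whole number). They gave 5435985 to 9049796 reads per library and did not enter the main fit. Their uses were depth, reads per gene, the check of the read filter, the simulated data and the voom alternative. PCR reads are not independent molecules.

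The authors tested with edgeR. Since the deposited unit is log2, limma 3.58.1 in R 4.3.3 (eBayes variances with a trend on the mean, no covariate) was fitted to all 10697 genes, two-sided, with Benjamini-Hochberg adjustment. Tested on simulated data for 10697 genes, it recovered 58 of 100 changes of 0.5 and 90 of 100 of 1 (log2), and called 11 unchanged genes. Pairs of members were compared by exact two-sided permutation over 924 relabellings (smallest p 0.0022) in SciPy 1.17.1. Members and lists were chosen with earlier results of these data known. Named genes are all members, up to 3 called genes per list or else the one with the smallest p-value, and *Srebf1*, *Srebf2*, *Insig1* and *Scap*. Other genes named were chosen after their values were seen. Alternatives were the variance trend, robust variance, a pseudocount of 10, a filter at a mean of 5, median centring, quantile normalization, voom, a replicate block, odd and even replicate numbers, and leaving out each library.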

Additional observations from a re-analysis of the deposited data

Results flagged for a closer look

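Each group of 6 was searched for a library whose distance to its neighbor takes up more of the range of the group than Dixon's 95% critical value allows. Of 64 groups over members, named genes, pairs and read totals, 6 held such a library, and chance gives about 3.2. Among the members this was thymol replicate 3 for *Acaca* (4.74 log2 CPM, next 4.42). Among the other genes, it was thymol replicate 2 for *Insig1* (2.82, next 3.71), DMSO replicate 2 for *Prkaa1* (5.13, next 5.46), thymol replicate 3 for *Cyb5b* (7.57, next 7.43) and thymol replicate 5 for *Apoe* (13.06, next 13.13). Thymol replicate 5 also stood apart in depth, with 9049796 recovered reads.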

How the results depend on the processing

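Over the 9 members and all alternatives, 197 of 205 fold changes kept their direction and their side of the threshold, and 3 moved past it (*Acly* with median centring and with the filter on low values, *Scd1* without thymol replicate 1). *Fads1* no longer passed in 3 (limma adjusted p = 0.064 without the mean-variance trend, 0.21 and 0.23 in the odd-numbered and even-numbered libraries alone). *Acaca* turned to 0.019 in the even-numbered libraries and, with 1 library left out, ranged from -0.15 to 0.011 (without DMSO replicate 3). *Scap* ranged from -0.094 to 0.016 (without thymol replicate 5). For the other named genes, 386 of 434 kept direction and side, 46 lost a call, 1 gained one and 1 turned. Of the genes called among them, only *Hmgcs1* and *Hsd17b7* passed under every alternative run. The count of members called was 3 with all 12 libraries and 2 to 4 under the alternatives. Without the mean-variance trend, 57 genes in all, 2 members and 1 of the 85 list genes were called, and in the odd-numbered libraries 70 genes in all and 1 list gene. The even-numbered libraries alone also gave 1 list gene. With 1 library left out, genes called ranged from 172 to 270, members called from 3 to 4 and list genes called from 3 to 6. The pair changes then ranged from -0.40 to -0.24 for *Scd2* minus *Scd1*, from -0.31 to -0.21 for *Fads2* minus *Fads1* and from 0.035 to 0.19 for *Elovl6* minus *Elovl5*. With 3 libraries per group the exact test cannot pass the threshold. The cause of these shifts was not tested. Same-numbered thymol and DMSO libraries had correlated deviations of -0.051 to 0.27. The correlation was over 0.1 in 2 of 6 pairs, and 2 of 6 libraries were closest to their own number. Whether the numbers mark pairs remains undetermined, and they were not taken as pairs. With the replicate block, 332 genes were called in place of 238, the members called were again 3, and 6 list genes passed. Among the members, *Acaca* and *Elovl6* had the fewest reads, with means of 156 and 212 per DMSO library.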
